A study of Homo sapiens with 30 samples.

Results

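The genes described here encode the proteasome and the proteins that open or assemble it. They were taken from the PRO-Seq table by symbol, as every gene named PSMA, PSMB, PSMC, PSMD, PSME or PSMG followed by digits only. The rule found 47 genes, each with 1 transcript, of 20367 gene symbols in the table. By symbol, the genes fall into 8 20S alpha subunits (PSMA), 11 20S beta subunits (PSMB) and 6 19S ATPases (PSMC). The rest are 14 19S non-ATPase genes (PSMD), 4 activators (PSME) and 4 assembly chaperones (PSMG). These symbol groups are called roles below, and the PSMD group also holds the chaperones PSMD9 and PSMD10. PSMC3IP begins with the same letters and was left out, because it is not a proteasome gene.

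The proteasome is the protease that degrades proteins tagged with ubiquitin. Its 20S core is a barrel of outer alpha rings, which gate the entry, and inner beta rings, which hold the catalytic sites, and its 19S cap recognizes, unfolds and feeds in the substrate. Subunits must be made in balanced amounts, and in animal cells the transcription factors NFE2L1 and NFE2L2, which bind antioxidant response elements, are known to raise proteasome gene transcription. MYC binds the E-box CACGTG together with MAX and drives genes of growth and protein turnover.

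All samples were G401 cells, a malignant rhabdoid tumor line that lacks SNF5, the SMARCB1 product and a core subunit of the SWI/SNF chromatin remodeler. Cells were transduced with a lentivirus carrying EGFP, the MYC inhibitor OmoMYC or SNF5 under a TET-inducible promoter, selected with G418 and given doxycycline, at 1 μg/ml over 24 h, the EGFP controls included. Each protein carried an HA tag, and OmoMYC is MYC with mutations in its DNA-binding domain. For PRO-Seq, plates of a condition were combined before harvest. The comparisons ask which genes respond to blocking MYC and which to returning SNF5. PRO-Seq, which counts actively transcribing RNA polymerase, and ATAC-Seq, which maps open chromatin, had 3 samples per construct, and MYC ChIP-Seq had 2. SMARCB1 had between 1 and 6 gene body reads in each EGFP and OmoMYC sample and between 2870 and 4467 in each SNF5 sample, as the labels require. The mesenchymal gene VIM was transcribed in all 9 samples, at 22.3 to 54.0 reads per kb per 1000000 scaled gene body reads. Of the blood markers, PTPRC, CD3E and LYZ were at or near 0, HLA-DRA was listed at 0, CD74 lay at 0.616 to 1.33 and CD68 at 7.98 to 17.0. Of the epithelial markers, EPCAM and CDH1 stayed at or below 0.252, while KRT8 and KRT18 were transcribed, with at least 3.99 in every sample.

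MYC had a peak near the start of 7 of the 47 genes in both EGFP samples. These were PSMA2, PSMB3, PSMC4, PSMD9, PSME3, PSME4 and PSMG4, at least 1 in each symbol group. The only PSMD gene among them was PSMD9, a chaperone of the 19S base. A gene was called MYC-bound where a peak of EGFP 1 shared at least 1 bp with a peak of EGFP 2 and a summit lay within 1 kb of the start in the PRO-Seq table. The share was 14.9%, against 4.34% of all 20367 genes, and 7 of the 43 members that passed the count filter below (16.3%) against 7.42% of the 11171 genes that did. The counts depend on the depth of the peak lists, since EGFP 1 had 940 peaks and EGFP 2 had 5396. Taking EGFP 2 alone, 19 members (40.4%) had a peak, against 23.1% of all genes.

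At 4 of the bound genes, the E-box stood within 100 bp of a summit. Their sequences around it are shown because they carry the letters that MYC and MAX bind. Each is the GRCh37 reference on the strand of the gene, with the E-box in capitals.
PSMB3, chr17:36908728-36908789: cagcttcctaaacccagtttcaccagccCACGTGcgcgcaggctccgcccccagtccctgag
PSMC4, chr19:40476625-40476686: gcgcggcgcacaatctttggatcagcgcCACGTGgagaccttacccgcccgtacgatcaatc
PSMD9, chr12:122326537-122326598: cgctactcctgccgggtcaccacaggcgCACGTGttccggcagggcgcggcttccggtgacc
PSME3, chr17:40985344-40985405: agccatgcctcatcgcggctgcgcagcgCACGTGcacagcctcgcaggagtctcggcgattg

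All 4 windows lie upstream of the start. In PSMB3 the E-box was 10 bp from the summit in both EGFP samples. In PSME3 it was 6 and 26 bp away and in PSMD9 85 and 10 bp away, in EGFP 1 and 2. In PSMC4 it lay 79 bp from the summit of EGFP 1 and more than 100 bp from that of EGFP 2. No E-box was found within 100 bp of either summit at PSMA2, PSME4 and PSMG4. Among all peaks, 51.3% of those in EGFP 1 and 26.1% of those in EGFP 2 had this motif within 100 bp of the summit. Of the 19 members with a peak in EGFP 2, only PSMB3, PSMD9 and PSME3 had it there. None of the members with a peak in EGFP 2 alone had it. At PSMA2 and PSMD9 another gene starts close by, MRPL32 at 134 bp and HPD at 129 bp, so that a peak cannot be assigned to 1 gene of the pair.

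Fold enrichment over the local background, as the peak caller gave it, was highest at PSMB3 (7.22 and 10.7 in EGFP 1 and 2) and PSME3 (7.69 and 10.4). PSMG4 had 4.77 and 10.6, PSMD9 5.62 and 7.81, PSMC4 4.89 and 6.90, PSMA2 4.46 and 5.97, and PSME4 5.09 and 4.71. The ranking of PSMG4 thus differed between the EGFP samples.

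With SNF5, a single member kept a peak in a single sample. This was PSME3, the nuclear activator also called PA28 gamma, with a fold enrichment of 6.17 in SNF5 1 and no peak in SNF5 2. The SNF5 lists had 137 and 27 peaks in all, with 0.614% and 0.0786% of all genes near a summit. The OmoMYC lists held a placeholder line and no peak, so 0 members had one. A missing peak in these lists says that the caller's threshold was not passed, and the read counts behind it were not used here.

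**Figure D1:**
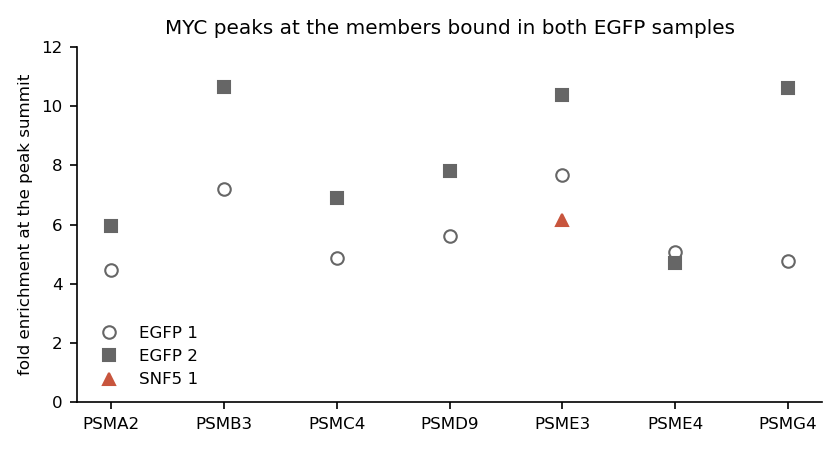
Fold enrichment at the MYC summit (y axis, linear) for the 7 members bound in both EGFP samples (x axis). Open circles are EGFP 1, squares EGFP 2 and the triangle SNF5 1; samples with no symbol had no peak, and the single SNF5 peak, at PSME3, lies below both EGFP values.

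The promoters were searched for 3 motifs on both strands, in the window from 250 bp upstream to 50 bp downstream of the RefSeq start on GRCh38. A promoter was matched for 41 of the 47 members. The E-box CACGTG was in 3 of them (7.32%), against 9.02% of the 13295 promoters of all genes. The antioxidant response element core TGACNNNGC was in 13 (31.7%), against 14.5%. CCAAT, the box that NF-Y binds, was in 19 (46.3%), against 36.2%. Restricted to the promoters of genes that passed the count filter, these shares were 10.8%, 15.5% and 37.1%. The 3 members with an E-box were PSMB3, PSMD9 and PSME3, all MYC-bound. The upstream 250 bases of PSMB3 and PSMD9 are shown because both hold an antioxidant response element core beside the E-box. Motifs are in capitals.
PSMB3, chr17:38752491-38752740: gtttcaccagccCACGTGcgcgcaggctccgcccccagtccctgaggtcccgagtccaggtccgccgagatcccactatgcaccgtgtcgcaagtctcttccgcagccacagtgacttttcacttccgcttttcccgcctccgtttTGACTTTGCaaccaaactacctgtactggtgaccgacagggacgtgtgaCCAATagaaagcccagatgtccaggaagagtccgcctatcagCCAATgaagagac
PSMD9, chr12:121888540-121888789: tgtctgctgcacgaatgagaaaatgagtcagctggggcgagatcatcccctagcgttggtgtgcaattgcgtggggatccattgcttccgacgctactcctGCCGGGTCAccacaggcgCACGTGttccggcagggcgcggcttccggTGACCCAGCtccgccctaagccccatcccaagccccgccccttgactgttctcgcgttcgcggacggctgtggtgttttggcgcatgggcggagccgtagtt

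In PSMB3 the E-box began 238 bp before the start, the response element core 104 bp before it, and CCAAT 55 and 13 bp before it. In PSMD9 the E-box began 131 bp before the start, between response element cores at 149 and 102 bp, the first of them on the other strand. PSMD3, a scaffold subunit of the 19S lid, held 2 response element cores and a CCAAT box without an E-box. A match gives letters, not a binding site.

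PRO-Seq gave each gene a promoter-proximal count, from the 50-bp window richest in reads within 500 bp of the start, and a gene body count, from 1 kb downstream of the start to the end. Of the 47 members, 43 had a mean of at least 10 reads in both regions and were tested, out of 11171 genes. Values below are densities on the same scale. With EGFP, the median gene body density of the 43 was 4.33, with a range from 0.923 to 12.2, against a median of 1.79 over all genes tested. Since densities are relative to each library, a change common to all genes would not show, and fewer transcribing cells and fewer polymerases per cell cannot be told apart.

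The highest and lowest densities with EGFP (mean ± SD, n = 3) were compared within each role. In the 20S alpha ring, PSMA7 was highest at 8.93 ± 0.320 and PSMA1 lowest of the tested genes at 1.11 ± 0.207. Among beta subunits, PSMB10 was highest at 12.2 ± 3.74, above PSMB4 at 9.79 ± 1.44 by less than its SD, and PSMB3 was lowest of the tested genes at 3.59 ± 0.485. Among 19S ATPases, PSMC5 was highest at 7.29 ± 0.572 and PSMC2 lowest at 3.54 ± 1.06, close to PSMC1 at 3.64 ± 0.702. Among PSMD genes, PSMD1, a scaffold of the base, was highest at 6.08 ± 0.884, and PSMD10, the assembly chaperone known as gankyrin, was lowest at 0.923 ± 0.263. Among activators, PSME3 was highest at 4.04 ± 0.408, within 1 SD of PSME2 at 3.74 ± 0.510, and PSME1, the partner of PSME2 in the PA28 ring, was lowest at 1.46 ± 0.193, close to PSME4 at 1.57 ± 0.104. Among PSMG chaperones, PSMG3 was highest at 6.95 ± 1.23 and PSMG2 lowest at 1.72 ± 0.219. The table starts PSMA1 123248 bp and PSMG2 44303 bp upstream of the canonical GENCODE start, so their densities average over long stretches and their promoter-proximal windows lie at those distant starts.

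The 4 members that were not tested differ in kind. PSMA8, the testis form of PSMA7, had 2 to 15 gene body reads and no promoter-proximal read in any sample. PSMB11, the thymus beta subunit, had 0 to 2 gene body reads and 0 to 6 promoter-proximal reads. PSMB8 and PSMB9, catalytic subunits of the immunoproteasome, were listed at 0 in all 9 samples. Their zeros cannot be read as silence, because 130 of the 164 genes in the table between 29808494 and 33827628 on chromosome 6 (GRCh37) were listed at 0 in all 9 samples, including RPS18, TUBB and BRD2, which every cell uses. This is 79.3% of those genes, against 7.69% of the other genes of chromosome 6.

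The interferon-inducible forms could therefore be compared with their constitutive counterparts for 1 pair only. PSMB10, which replaces PSMB7, had densities of 7.95, 14.9 and 13.8 with EGFP, 9.13, 15.7 and 12.8 with OmoMYC, and 10.1, 12.2 and 12.1 with SNF5. PSMB7 had 4.54, 3.85 and 3.45, then 3.92, 3.11 and 3.34, then 3.88, 3.27 and 3.39. PSMB10 was above PSMB7 in all 9 samples, and neither passed the test against EGFP (PSMB10 log2 change 0.05 ± 0.13 (SE), adjusted p = 0.821 by edgeR with OmoMYC, and -0.05 ± 0.13, adjusted p = 0.779, with SNF5).

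OmoMYC against EGFP asks which genes respond when MYC is blocked. With OmoMYC, 3 of the 43 tested members were lower in the gene body and 0 were higher at an adjusted p under 0.05 (edgeR quasi-likelihood test, replicate number as a block). Over all genes tested, 7.27% were lower and 5.16% higher, beside 6.98% and 0% of the members. The members that fell were PSMG4, PSMC4 and PSMD1, and PSMG4 and PSMC4 are MYC-bound.

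PSMG4, an assembly chaperone of the alpha ring that pairs with PSMG3, had densities of 4.70, 3.79 and 3.43 with EGFP and 2.79, 2.21 and 3.03 with OmoMYC, in replicates 1, 2 and 3. Every OmoMYC sample lay below every EGFP sample. The log2 change was -0.56 ± 0.12 (SE, adjusted p = 0.0264 by edgeR), a ratio of 0.677.

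PSMC4, a 19S ATPase also called RPT3, had 6.5, 4.34 and 5.49 with EGFP and 4.74, 2.96 and 4.48 with OmoMYC. The groups overlapped, with replicate 2 lowest under both constructs, and each replicate fell against its own EGFP sample. The log2 change was -0.43 ± 0.08 (adjusted p = 0.0205 by edgeR). PSMD1 had 5.21, 6.98 and 6.07 with EGFP and 4.30, 5.22 and 5.5 with OmoMYC, again lower in each of the 3 pairs with overlapping groups, and its log2 change was -0.28 ± 0.06 (adjusted p = 0.0302 by edgeR).

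SNF5 against EGFP asks which genes respond when the missing subunit is returned. With SNF5, 11 members were lower in the gene body and 2 were higher. The share of all genes tested that were lower was 22.1%, close to the 25.6% of the members, and the share higher was 12.4%, above the 4.65% of the members. The 11 comprised PSMA7 of the alpha ring, PSMB2, PSMB3, PSMB5 and PSMB6 of the beta ring, the ATPases PSMC3 and PSMC4, the ubiquitin receptor PSMD4, the activator PSME2 and the chaperones PSMG3 and PSMG4. By role, 1 of 7 tested alpha subunits, 4 of 8 beta subunits and 2 of 6 ATPases were lower. So were 1 of 14 PSMD genes, 1 of 4 activators and 2 of 4 PSMG chaperones.

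PSME2, the beta chain of the PA28 activator, fell most. Its densities were 3.93, 3.17 and 4.14 with EGFP and 2.37, 2.71 and 2.29 with SNF5, which did not overlap. The log2 change was -0.61 ± 0.14 (adjusted p = 0.0122 by edgeR), a ratio of 0.654. Its partner PSME1 had 1.66, 1.44 and 1.28 with EGFP and 1.67, 1.73 and 1.45 with SNF5, a log2 change of 0.15 ± 0.16 (adjusted p = 0.512 by edgeR) on 77 to 131 gene body reads a sample.

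PSMB6, the beta subunit with caspase-like activity that PSMB9 replaces in the immunoproteasome, had 5.32, 5.97 and 5.99 with EGFP and 3.86, 3.22 and 4.81 with SNF5, without overlap. The log2 change was -0.55 ± 0.14 (adjusted p = 0.0173 by edgeR). PSMB5, the chymotrypsin-like subunit and the main target of proteasome inhibitors in the clinic, had 6.33, 5.30 and 5.23 with EGFP and 5.72, 4.02 and 4.64 with SNF5, with overlap, and its log2 change was -0.24 ± 0.07 (adjusted p = 0.0270 by edgeR). PSMB7, the trypsin-like subunit, had a log2 change of -0.16 ± 0.06 that did not pass (adjusted p = 0.0645 by edgeR).

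PSMC4 had the third largest fall, to 4.52, 2.76 and 4.51 from the EGFP values above, a log2 change of -0.48 ± 0.08 (adjusted p = 0.00273 by edgeR). PSMD4, which binds ubiquitin chains at the 19S cap, had 3.58, 3.89 and 3.22 with EGFP and 2.74, 2.63 and 2.79 with SNF5, without overlap and with a log2 change of -0.39 ± 0.08 (adjusted p = 0.00675 by edgeR). The log2 changes of the remaining 6 that fell (PSMG4, PSMG3, PSMB3, PSMC3, PSMA7 and PSMB2) lay between -0.46 and -0.20. PSMA7, highest of the alpha ring, had 9.19, 8.57 and 9.03 with EGFP, 7.46, 6.99 and 8.36 with OmoMYC and 7.28, 7.59 and 7.19 with SNF5. Both constructs lay wholly below EGFP, and the SNF5 call passed (log2 change -0.28 ± 0.07, adjusted p = 0.0192 by edgeR) while that of OmoMYC did not (-0.23 ± 0.07, adjusted p = 0.0677).

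PSMG3 had gene body densities of 7.42, 7.87 and 5.56 with EGFP, 6.94, 5.29 and 4.7 with OmoMYC and 5.94, 4.92 and 5.05 with SNF5, with overlap, and its SNF5 call was the nearest to the threshold (log2 change -0.38 ± 0.13, adjusted p = 0.0499 by edgeR). PSMC5, the ATPase also called RPT6, had 7.68, 7.56 and 6.63 with EGFP, 6.13, 4.63 and 6.23 with OmoMYC and 6.12, 5.08 and 6.34 with SNF5. Neither construct overlapped EGFP, and neither passed the test (adjusted p = 0.0646 and 0.0555 by edgeR).

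The lowest tested genes of 4 roles passed no test against EGFP. One was PSME1, given above for EGFP and SNF5, which had 1.95, 2.37 and 1.57 with OmoMYC (log2 change 0.41 ± 0.16, adjusted p = 0.119 by edgeR). PSMD10 had 0.905, 1.2 and 0.669 with EGFP, 1.19, 1.71 and 0.929 with OmoMYC and 1.02, 1.26 and 0.955 with SNF5, and its OmoMYC change of 0.46 ± 0.13 on the log2 scale missed the threshold (adjusted p = 0.0517 by edgeR). PSMA1 had 0.922, 1.33 and 1.07, then 0.808, 1.03 and 1.05, then 0.87, 1.07 and 0.913. PSMC2 had 3.5, 4.61 and 2.5, then 3.09, 3.66 and 2.47, then 2.99, 3.76 and 2.72. In PSMC2 replicate 2 was highest and replicate 3 lowest under every construct.

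The 2 members that rose were PSME4 and PSMG2. PSME4, the PA200 activator, had 1.61, 1.45 and 1.65 with EGFP and 2.05, 1.91 and 1.73 with SNF5, without overlap and with a log2 change of 0.27 ± 0.08 (adjusted p = 0.0237 by edgeR). It is MYC-bound in EGFP cells, and its OmoMYC values were 1.6, 1.48 and 1.73, a log2 change of 0.03 ± 0.08 (adjusted p = 0.805 by edgeR). PSMG2, the partner of PSMG1 in alpha ring assembly, had 1.62, 1.97 and 1.56 with EGFP and 1.91, 2.14 and 1.99 with SNF5, a log2 change of 0.23 ± 0.07 (adjusted p = 0.0247 by edgeR). CEP76 overlaps PSMG2 on the other strand, and PSMG2 was counted from the distant start given above. On the other strand HTR2B likewise overlaps PSMD1, FTSJ3 overlaps PSMC5, SLC26A5 overlaps PSMC2 and FAM158A overlaps PSME1. PSMA3, PSMB7, PSMB8 and PSMD6 also overlap a gene there. The strand used for gene body counts is not given in the sources used here.

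**Figure D2:**
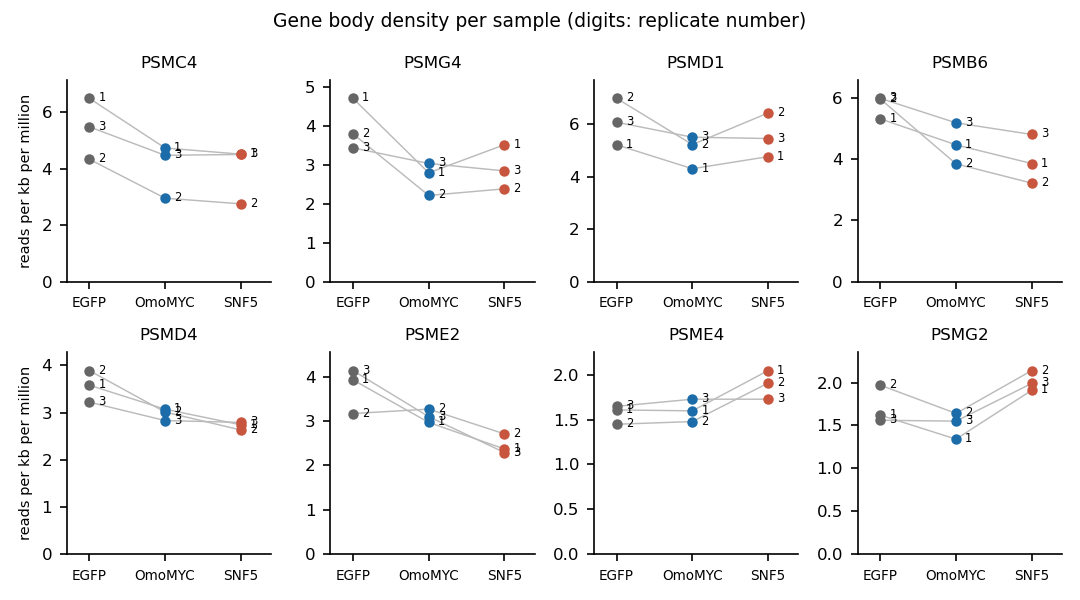
Gene body density in reads per kb per 1000000 scaled reads (y axis, from 0) in each of the 9 samples for 8 members that passed a test, by construct (x axis). Digits are replicate numbers and grey lines join samples with the same number; PSMC4 is lower with OmoMYC and with SNF5 in all 3 replicates, and PSMG2 and PSME4 are higher with SNF5 in all 3.

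Between SNF5 and OmoMYC, 1 member was called in the gene body. PSMG2 was higher with SNF5, where it had 1.91, 2.14 and 1.99 against 1.34, 1.64 and 1.55 with OmoMYC, without overlap. The log2 change was 0.42 ± 0.07 (adjusted p = 0.00439 by edgeR). The counted gene body of PSMG2 is 66002 bp long, and its start lies 44303 bp upstream of the canonical GENCODE start. The change therefore also covers a long stretch before that start. No other member was called, against 7.58% of all genes higher and 8.48% lower. The interval of the difference for PSMC4 was -0.22 to 0.12 on the log2 scale, and that for PSMG4 was -0.17 to 0.38.

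The members moved little and mostly in 1 direction. The log2 change with OmoMYC was below 0 in 38 of the 43, against 56.6% of all genes tested, and with SNF5 in 37, against 62.6%. The median change was -0.17 with OmoMYC and -0.18 with SNF5, against -0.03 and -0.08 over all genes. Gene body density moved with this result. Of the 43, 34 lie in the highest of 4 equal bins of genes by density over the 9 samples. In that bin the median over all genes was -0.15 with OmoMYC and -0.17 with SNF5, beside -0.18 and -0.19 over the 34 members. Of all genes in it, 81.9% were below 0 with OmoMYC and 81.0% with SNF5, beside 32 and 33 of the 34 members. By gene body length, 19 members lie in the shortest of 4 equal bins, in which the median of all genes was -0.11 with OmoMYC and -0.21 with SNF5, beside -0.18 and -0.25 over those 19. From the second to the longest bin there were only 13, 6 and 5 members. Their medians with OmoMYC were -0.15, -0.17 and -0.18, and those of all genes -0.05, -0.03 and 0.03. With SNF5 the members' medians were -0.13, -0.16 and -0.11, beside -0.12, -0.05 and 0.05. The part of density and of length in the members' change was not tested.

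The 7 MYC-bound members had a median change of -0.15 with OmoMYC and -0.23 with SNF5, and the other 36 had -0.17 and -0.17. With OmoMYC 2 of the 7 were lower, and with SNF5 3 of the 7 were lower (PSMB3, PSMC4 and PSMG4) and 1 higher (PSME4). Over all 829 MYC-bound genes tested, 22.8% were lower with OmoMYC and 43.5% with SNF5, and the medians were -0.15 and -0.20.

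The other bound members were measured as follows. PSMB3, with the E-box 10 bp from both summits, had 4.03, 3.07 and 3.68 with EGFP, 3.23, 2.59 and 3.38 with OmoMYC, and 3.04, 2.3 and 3.20 with SNF5. The log2 change with SNF5 was -0.34 ± 0.07 (adjusted p = 0.00795 by edgeR), and with OmoMYC it was -0.23 ± 0.07 and did not pass (adjusted p = 0.0647 by edgeR). PSME3, which kept a MYC peak in SNF5 1, had 4.27, 3.57 and 4.29 with EGFP, 3.42, 3.08 and 4.48 with OmoMYC and 3.42, 3.25 and 3.66 with SNF5, and passed neither test. PSMA2 had 4.44, 4.69 and 3.6 with EGFP, 3.94, 3.9 and 3.78 with OmoMYC and 3.81, 3.61 and 3.62 with SNF5, with overlap in both comparisons. PSMD9, a chaperone of the 19S base, had 1.97, 1.68 and 1.63, then 1.72, 1.57 and 1.49, then 1.84, 1.6 and 1.71. Neither passed a test (PSMA2 log2 change -0.12 ± 0.08 and -0.20 ± 0.08, PSMD9 -0.14 ± 0.06 and -0.03 ± 0.06).

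**Figure D3:**
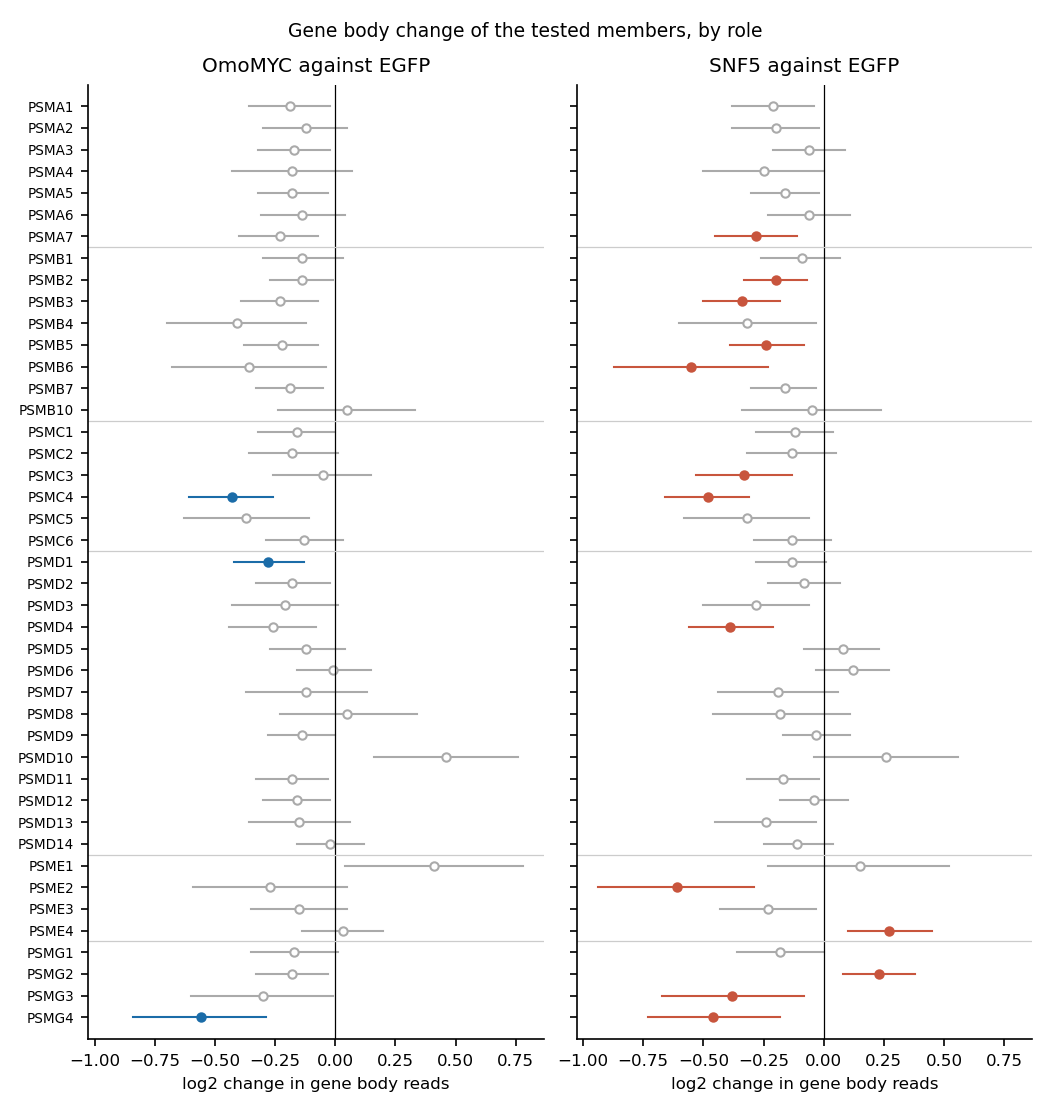
Log2 change in gene body reads (x axis) with its 95% confidence interval for each of the 43 tested members (y axis), grouped from the top by role: 20S alpha, 20S beta, 19S ATPase, 19S non-ATPase, activators and assembly chaperones. Filled points passed an adjusted p of 0.05; 38 points with OmoMYC and 37 with SNF5 lie left of 0.

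Replicate number 3 carried the smallest change. Samples with the same number deviated together from their group means, and so each construct was also set against the EGFP sample of its own number. With OmoMYC the median log2 ratio of the 43 members was -0.21, -0.27 and -0.03 in replicates 1, 2 and 3, and 40, 37 and 28 members were below 0. With SNF5 the medians were -0.21, -0.26 and 0.00, and 36, 37 and 21 were below 0. The medians of all genes tested were -0.04, -0.05 and -0.01 with OmoMYC and -0.07, -0.11 and -0.05 with SNF5. With OmoMYC 26 of the 43 were lower in all 3 pairs, against 33.1% of all genes, and with SNF5 20 were, against 39.1%. Without replicate 3, 33 members were lower with OmoMYC and 32 with SNF5 of the 42 then tested, against 32.5% and 41.6% of all genes. Without replicate 1, 0 members were called in the gene body in either comparison, and over all genes 0% were lower and 0.0176% higher with OmoMYC and 3.08% lower and 4.62% higher with SNF5. Without EGFP replicate 3 alone, 24 and 27 were lower, against 16.1% and 25.5% of all genes, and without SNF5 replicate 3, 15 and 22, against 17.2% and 25.8%. Epithelial markers also moved with the number, in different directions. CDH1 was higher in the 3 replicate 3 samples (0.176 to 0.252, against 0.0241 to 0.110 in the other 6), while KRT8 (3.99 to 4.73, against 5.9 to 11.1) and KRT18 (19.8 to 24.5, against 32.7 to 42.7) were lower there. EPCAM overlapped, at 0.0510 to 0.0744 against 0.0231 to 0.0549. Their part in the result was not tested.

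**Figure D4:**
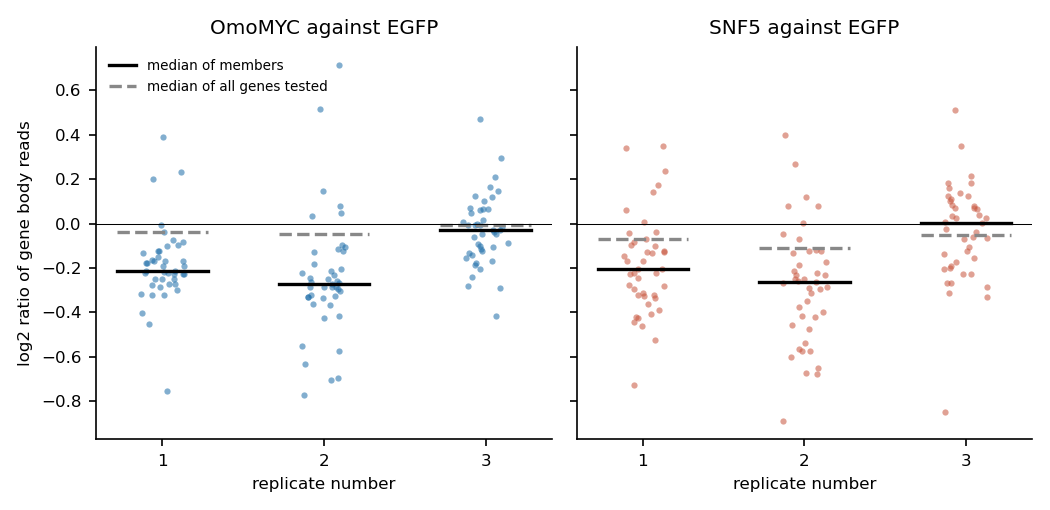
Log2 ratio of scaled gene body reads of each tested member (points) against the EGFP sample with the same replicate number (x axis), for OmoMYC and SNF5. Black lines are medians of the members and dashed grey lines medians of all genes tested; the members' median is near 0 in replicate 3 and between -0.21 and -0.27 in replicates 1 and 2.

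Promoter-proximal reads of the members did not pass the test in any comparison. With OmoMYC 0 of 43 were called, against 1.83% of all genes. An unadjusted p under 0.05 was found at 10 of the 43, against 1732 of the 11171 genes. With SNF5 0 were called, against 4.31%, with 6 at an unadjusted p under 0.05, against 2262 of all genes. Between the constructs 0 were called, against 0.797%, with 3 under that p, against 1572 of all genes. DESeq2 called 0 in each of these. The promoter-proximal totals ranged from 518900 to 3386528 reads a sample, lowest in replicate 1 of each construct, so densities in this window varied widely between replicates of 1 construct. The scaling decides the sign of the median: with OmoMYC the median change of all genes was 0.12 with gene body scaling and -0.03 when the window was scaled on its own, and that of the members was 0.14 with gene body scaling.

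The pausing index is the density in the promoter-proximal window over that in the gene body, and is high where polymerase waits near the start. With EGFP it ranged from 2.74 at PSMG3 to 272 at PSMD9, with a median of 21.9 over the tested members and 28.7 over all genes. At PSMD9 the 3 EGFP samples had 21.8, 545 and 249, with an SD of 262 beside a mean of 272. At PSMG1 they had 19.6, 18.5 and 21.9.

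PSMG3 was the only member with a called change in pausing index. PSMG3 pairs with PSMG4, and its index was 1.48, 3.93 and 2.81 with EGFP, 2.84, 9.96 and 5.04 with OmoMYC, and 2.25, 11.6 and 3.74 with SNF5. Each replicate was higher than its EGFP sample under both constructs, while the groups overlapped. The log2 change was 1.06 ± 0.30 with OmoMYC (adjusted p = 0.0390 by edgeR) and 0.92 ± 0.30 with SNF5 (adjusted p = 0.0651 by edgeR). The window held 19 to 102 reads a sample. Over all genes, 2.18% were higher and 0.0806% lower with OmoMYC, 3.66% were called in either direction with SNF5, and 1.23% between the constructs. The PSMG3 call was lost when the window was scaled on its own.

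The median log2 change in pausing index of the members was 0.26 with OmoMYC and 0.04 with SNF5, against 0.14 and 0.01 over all genes. With the window scaled on its own, the OmoMYC medians were 0.11 over the members and -0.01 over all genes, so that the sign over all genes depends on the scaling. The index was higher in all 3 pairs at 17 members with OmoMYC, against 25.8% of all genes, and at 10 with SNF5, against 20.1%. In replicates 1, 2 and 3 the members' medians were 0.48, 0.52 and -0.03 with OmoMYC, against 0.37, 0.25 and -0.11 over all genes. With SNF5 the members' medians were 0.27, 0.22 and -0.26, against 0.15, 0.04 and -0.12.

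Other genes of the pathway were read from a list of 25 that hold regulators, shuttle factors and ubiquitin genes. PSMF1, an inhibitor of the 20S core, had no promoter-proximal read, and UBA1 was listed at 0, so 23 were tested. With OmoMYC 1 was higher, ZFAND5 (log2 change 0.20 ± 0.05), a factor that stimulates the proteasome, and 1 lower, UBE3C (-0.17 ± 0.05), a ubiquitin ligase bound to it. With SNF5 ZFAND5 was again higher (0.22 ± 0.05), and 4 were lower: DDI2 (-0.35 ± 0.06), the protease that activates NFE2L1, the shuttle factor UBQLN4 (-0.23 ± 0.07), the unfoldase VCP (-0.19 ± 0.05) and the proteasome adaptor KIAA0368 (-0.17 ± 0.05). NFE2L1 itself had a log2 change of -0.08 ± 0.07 with OmoMYC and -0.20 ± 0.07 with SNF5 (adjusted p = 0.0529 by edgeR). The medians over the 23 were -0.12 and -0.05. The calls were 4.35% of the 23 in each direction with OmoMYC, against 5.16% of all genes higher and 7.27% lower, and 4.35% higher and 17.4% lower with SNF5, against 12.4% and 22.1%.

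Open chromatin was found at nearly all member starts in at least 1 sample. At 24 of the 47 a peak was present in some samples only (51.1%, against 34.9% of genes). An ATAC summit within 1 kb of a start was present in all 9 samples at 21 of the 47 members (44.7%), against 27.8% of 16981 genes, and in none at PSMA8 and PSMB11, the members that are barely transcribed here, against 37.3% of genes. The number of members with a peak was 34, 42 and 27 with EGFP, on 12484, 17817 and 9208 peaks, 28, 43 and 35 with OmoMYC, on 7260, 23684 and 12224, and 45, 42 and 40 with SNF5, on 33596, 26604 and 22722. The share of all genes with a peak ran from 33.7% in OmoMYC 1 to 59.6% in SNF5 1, so the share of all genes also differed with the lists. When every list was cut to the length of the shortest, 10 members had a peak in all 9 (21.3%, against 17.7% of genes). With lists of that length, 11 had a peak in none (23.4%, against 55.2%).

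Among the 21, the median fold enrichment was 7.67, 8.65 and 7.03 with EGFP, 5.84, 9.20 and 6.73 with OmoMYC and 8.46, 8.68 and 9.38 with SNF5, so the constructs overlapped. PSMD10, the member with the lowest tested gene body density, had the highest median enrichment with EGFP, from 11.8, 14.8 and 10.1, though PSMA2 and PSMD6 were above it in EGFP 3. PSMB3 had the lowest of the 21, from 4.48, 5.06 and 4.28. PSMC4 had 9.31, 7.95 and 5.58 with EGFP, 5.15, 7.68 and 8.08 with OmoMYC and 10.6, 8.68 and 10.1 with SNF5. SNF5 overlapped EGFP and lay above all 3 OmoMYC values, with no test.

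Some strongly transcribed members had few peaks. PSMA7 had one in 4 of 9 samples, 3 of them SNF5, PSMB4 in 3 and PSMG3 in 4. At the immunoproteasome genes, which the PRO-Seq table lists at 0, PSMB9 had a peak in 8 of 9 samples and PSMB8 in 2, both SNF5. The fold enrichment at PSMB9 was 5.27 and 5.06 in EGFP 1 and 2, with no peak in EGFP 3. It was 4.80, 6.48 and 6.20 with OmoMYC and 8.50, 6.70 and 7.72 with SNF5. When every list was cut to the length of the shortest, PSMB8, PSMB4 and PSMG3 had a peak in no sample. With the full lists PSMB10 had a peak in 8 of 9 samples.

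**Figure D5:**
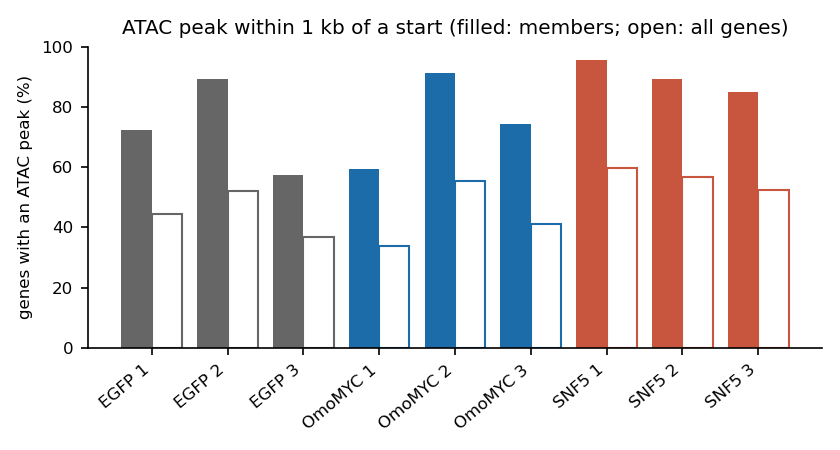
Percentage of genes with an ATAC summit within 1 kb of a start (y axis) in each sample (x axis). Filled bars are the 47 members and open bars all 16981 matched genes; the members lie above all genes in every sample, from 57.4% against 36.8% in EGFP 3 to 95.7% against 59.6% in SNF5 1.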

How the data were processed

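PRO-Seq (9 samples), MYC ChIP-Seq (6) and ATAC-Seq (9) of G401 cells were used; IgG samples were not. For PRO-Seq, the authors trimmed reads with cutadapt, aligned them to hg19 with Bowtie2, removed rRNA reads and those of low mapping quality, and used NRSA for counting on RefSeq transcripts. Raw counts of both regions were deposited, with a gene body signal (density) that served here only to give the gene body length. For MYC ChIP-Seq (hg19) and ATAC-Seq (hg38), the authors called peaks per sample with MACS2 at q-values of 0.01 and 0.001. The deposited lists give a fold ratio over local background and −log10 q, without reads.

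Of 20582 transcripts, that with the most reads was kept per symbol. Counts were tested with edgeR 4.0.16 (quasi-likelihood, Benjamini-Hochberg adjustment, R 4.3.3) over 11171 genes with a mean of at least 10 reads in both regions, in 1 fit of all 9 samples with construct and replicate number. Offsets were gene body totals (28444943 to 46957634 reads) times RLE factors. The pausing index was tested as the interaction of region and construct. The labels share replicate numbers between constructs, and these were taken as pairs because the deviations of samples with the same number correlated at 0.812 to 0.922 in the gene body and 0.693 to 0.853 in the promoter-proximal window. The study describes the replicates as independent experiments. It also reports that its own tests of both regions allowed for a batch effect, without saying what the batch was. Ratios within a pair had 0.5 reads added. Scripts were tested on simulated counts. Peaks had no test.

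Starts for ATAC-Seq came from the GRCh38 positions that GENCODE lists, and promoters from RefSeq (GRCh38.p14). The members and lists were chosen with earlier results of these data known. Named were, per measure and construct, the 3 largest rises and falls past an adjusted p of 0.05, every MYC-bound member, the highest and lowest density in each role, PSMB5 to PSMB10 of the catalytic pairs, and members under the count filter; PSMB4, PSMC1, PSMD3, PSMD4 and PSMG1 were chosen beside the rule after their values were seen, and other names stand in full lists of called members. Alternatives were TMM factors, DESeq2 1.42.0, no count filter, no replicate block, 2 constructs at a time, other transcripts, own scaling of the window, other peak settings and left-out samples. A further blood marker is not reported here.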

Additional observations from a re-analysis of the deposited data

How the results depend on the processing

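Direction held for all 18 called member changes under every alternative run: of 325 alternative values 204 kept direction and call, 121 kept direction alone and 0 reversed. The counts of called members were less stable. Without the replicate block, 0 members were called in any comparison, where the gene body counts had been 3 lower with OmoMYC, 11 lower and 2 higher with SNF5, and 1 higher between constructs, and where 1 pausing index had been called (over all genes without the block, 1 was higher and 0 lower with OmoMYC, 89 higher and 3 lower with SNF5, 36 higher and 5 lower between constructs, and 0 in the window or the index); the block changed no other count of members. DESeq2 called 6 lower and 1 higher with OmoMYC, 14 lower with SNF5, 2 higher between constructs, and 0 pausing indices with OmoMYC, where over all genes it called 10.1% lower and 7.1% higher, 22.3% lower, 8.69% higher and 0.618%. With only the 2 constructs compared in the fit, gene body calls with OmoMYC were 4 lower and 1 higher, against 9.23% and 6.51%. With SNF5 they were 6 lower and 0 higher, against 14.5% and 9.55% of all genes. In the same fits 1 promoter-proximal change was called between constructs, against 0.665% of all genes higher and 2.0% lower. Scaling the promoter-proximal window on its own gave 1 call each with OmoMYC and SNF5 in that window, and pausing index calls of 0 and 2. Over all genes this window was higher in 1.1% and lower in 1.0% with OmoMYC, and 3.99% and 5.27% with SNF5. The pausing index shares were 1.1% and 0.546% with OmoMYC, and 3.63% and 3.43% with SNF5. Without a count filter, 1 promoter-proximal change was called with SNF5, against 3.01% of all genes higher and 1.88% lower. TMM factors and the first transcript listed left every count within 1.5 times. The cause of these shifts was not tested.

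Leaving out 1 replicate number or 1 sample gave 0 to 33 members lower and 0 to 1 higher in the gene body with OmoMYC, 0 to 32 and 0 to 2 with SNF5, and 0 to 5 and 0 to 6 between constructs. The share of all genes lower swung with it, from 0% to 32.5% with OmoMYC and from 2.35% to 41.6% with SNF5. The share of all genes higher ran from 0.0176% to 19.6% with OmoMYC and from 4.62% to 19.4% with SNF5. Between constructs 0.65% to 24.2% of all genes were lower and 2.27% to 18.8% higher. The same omissions gave 0 to 2, 0 to 2 and 0 to 1 promoter-proximal calls and 0 to 9, 0 to 2 and 0 pausing index calls in the same order. Of all genes, 0.0268% to 7.57%, 0.33% to 3.81% and 0.146% to 0.696% were higher in the window. The shares lower there were 0% to 0.809%, 0.0548% to 8.02% and 0.0183% to 3.92%. For the index the shares higher were 0% to 8.44%, 0.0183% to 3.32% and 0% to 0.331%. Those lower were 0% to 0.64%, 0.0183% to 4.99% and 0.0548% to 4.1%. For the gene body, 0 members were called without replicate 1 and the high ends came without replicate 3. Without replicate 2 the counts lower were 0 and 1, against 0% and 2.35% of all genes. Without EGFP replicate 1 the gene body counts lower were 0 and 2, against 0% and 9.56% of all genes. Without EGFP replicate 2 they were 0 and 4, against 0% and 8.79%. Without SNF5 replicate 1 or 2 they were 5 and 4 with SNF5, against 12.6% and 8.93%. Without OmoMYC replicate 1 or 2 they were 0 with OmoMYC, against 0% of all genes. Without OmoMYC replicate 3 the count was 9 with OmoMYC, against 11.9%.

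MYC-bound members numbered 7 with summits within 500 bp (14.9%, against 3.81% of all genes) and 8 with any GENCODE start (17%, against 5.25%). A reciprocal overlap of 50% gave 5 (10.6%, against 1.87%). A −log10 q of at least 5 gave 4 (8.51%, against 3.29%). Leaving out 1 EGFP sample gave 7 to 19 (14.9% to 40.4%, against 4.35% to 23.1%). Members with an ATAC peak in all samples numbered 20 within 500 bp (42.6%, against 26.8% of all genes). A −log10 q of at least 10 gave 7 (14.9%, against 11.6%), and equal numbers of top peaks gave 10 (21.3%, against 17.7%). RefSeq starts, chosen after seeing the data, gave 19 of 41 (46.3%, against 25.8%). Without 1 replicate number they were 21 to 26 (44.7% to 55.3%, against 27.8% to 33.4%). Promoter-proximal depth limits the pausing index: windows of PSMA1 held 3 to 31 reads a sample.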
